A study of Mus musculus with 140 samples.

Results

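The miRNAs described here are 5 mature products of 3 genes that are active in white blood cells: mmu-miR-223-3p and mmu-miR-223-5p, mmu-miR-142a-3p and mmu-miR-142a-5p, and mmu-miR-150-5p. They were taken by name from a table of 1474 mouse miRNAs, and all 5 were found. The 140 small RNA libraries came from 28 mice, 5 from each mouse, all male, of wild-type genotype and of strain C57BL6/OlaHsd. Glomeruli, arterioles, post-capillary venules and peritubular capillaries were cut out of the kidney by laser microdissection, and whole kidney was sampled beside them without it. In each compartment, 4 mice had cecal ligation and puncture (CLP), a model of abdominal sepsis, and were sampled at 4 h, 4 others at 24 h and 4 others at 72 h. At the same times 4 sham mice were sampled, and 4 healthy mice were sampled at 0 h. The design asks which miRNAs of the small vessels of the kidney change in sepsis with kidney injury.

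A miRNA is a short RNA that is cut from a hairpin and guides repression of messenger RNAs that pair with its seed. Either arm of the hairpin, named 5p and 3p, can be kept. miR-223 is a myeloid miRNA, abundant in neutrophils and monocytes, where it restrains granulocyte production and inflammatory activation. miR-142 is made in nearly all blood-forming lineages and is widely used as a marker of haematopoietic cells. miR-150 is abundant in mature lymphocytes, in which it acts on the transcription factor Myb.

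The mature sequences of 4 of the 5 were available from RefSeq (GRCm38.p6), and they are shown because both arms of miR-223 and of miR-142a were counted and are compared below. Bases 2 to 8, the seed, are in capitals.

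miR-223-3p: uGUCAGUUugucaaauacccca
miR-223-5p: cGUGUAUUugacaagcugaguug
miR-142a-3p: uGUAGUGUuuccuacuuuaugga
miR-142a-5p: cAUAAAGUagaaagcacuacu

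These 4 seeds differed from one another, and none of them was shared with any other of the 1679 mature names searched. In the hairpins the mature arms are in capitals, the 5p arm first.

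Mir223: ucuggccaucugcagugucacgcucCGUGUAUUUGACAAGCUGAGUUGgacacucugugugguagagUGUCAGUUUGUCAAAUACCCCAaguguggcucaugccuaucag
Mir142: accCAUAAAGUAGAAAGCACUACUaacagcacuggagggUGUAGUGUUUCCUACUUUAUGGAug

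In GRCm38.p6, the Mir223 hairpin lies at chrX:96242817-96242926 on the plus strand. GENCODE places it within an exon of the non-coding gene F630028O10Rik on the same strand. The Mir142 hairpin lies at chr11:87756864-87756927 on the plus strand, within an intron of the long non-coding gene Mir142hg. Another miRNA gene, Mir142b, is annotated on the opposite strand at that place, and the sources used here do not say whether reads were counted by strand. Mir150 lies at chr7:45121757-45121821 on the plus strand and overlaps no other annotated gene.

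The depth of the libraries limits these miRNAs more in some compartments than in others. The total miRNA count per library was 1412288 to 7921184 in whole kidney, 77258 to 1352025 in glomeruli, 19307 to 569283 in arterioles, 15148 to 567040 in venules and 4215 to 49456 in peritubular capillaries. A count of 0 therefore allowed a level of up to 2.12 CPM (counts scaled to a total of 1e+06) in the shallowest whole kidney library, and up to 712 CPM in the shallowest peritubular capillary library (3 counts, counting error only). CPM values are relative to the miRNA counts of a library, and unless stated they are scaled by the TMM method of edgeR within each compartment.

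miR-150-5p was the most abundant of the 5 in every compartment. Summed over the 28 libraries of a compartment, it took 1139 CPM before TMM scaling in whole kidney (rank 92 of 1425 detected miRNAs), 1513 in glomeruli (rank 75 of 841), 918 in arterioles, 1722 in venules and 969.6 in peritubular capillaries. miR-223-3p took 198 CPM in whole kidney, 199.6 in glomeruli, 212 in venules, 212 in peritubular capillaries and 58.3 in arterioles. miR-142a-3p was at 385 CPM in venules and at 66.1 CPM in whole kidney. miR-223-5p was the least abundant, with 511 counts in all over the whole kidney libraries and at least 3 counts in each of them. Levels of different miRNAs also carry the ligation and capture bias of small RNA libraries, so their order is that of the counts.

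In whole kidney, miR-223-3p was higher after CLP than after sham surgery at every time. At 4 h it was at 223.4, 256, 327 and 232 CPM in the 4 CLP mice, against 195, 125, 132 and 175 CPM in the 4 sham mice. All CLP libraries lay above all sham libraries. This separation held for 0.738% of the 542 miRNAs tested there. At 24 h it was at 274, 251, 203 and 173 CPM in CLP mice and at 167, 158, 149 and 179.7 CPM in sham mice. At 72 h it was at 215, 309, 176 and 267 CPM in CLP mice and at 177, 149.7, 153 and 134 CPM in sham mice. At each of these later times 1 CLP library fell just under the highest sham library. The healthy mice were at 146, 214, 176 and 143 CPM, within the range of the sham mice of all times but for 1 higher library.

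The log2 fold change of miR-223-3p in whole kidney, CLP over sham, was 0.73 ± 0.187 (SE) at 4 h, 0.46 ± 0.183 at 24 h and 0.66 ± 0.183 at 72 h, with 4 mice in each group. No single time passed the edgeR quasi-likelihood test after Benjamini-Hochberg adjustment over all miRNAs (adjusted p = 0.098, 0.425 and 0.0548 in the order of time, where 0.185%, 0.738% and 1.85% of miRNAs passed). At 4 h the adjusted p ran from 0.0181 without a filter on low counts to 0.726 with the spread taken from the compared libraries alone, and from 0.197 to 0.539 without 1 library. At 72 h the adjusted p ran from 0.0188 without a filter on low counts, through 0.0266 with DESeq2, 0.0408 with the spread taken from the compared libraries alone and 0.0461 with plain library totals, to 0.392 without CLP replicate 2, and it was 0.0225 without CLP replicate 3. When the 3 times were averaged in one contrast, a choice made after the values were seen, miR-223-3p rose by 0.61 on the log2 scale (SE 0.106, edgeR adjusted p = 0.000538). In that contrast 2.58% of the 542 miRNAs tested passed, and 2 of the 5 members were among them. The averaged value held without each of the 24 CLP and sham libraries in turn, between 0.56 and 0.65, with adjusted p from 0.000205 to 0.0038. A change of the CLP effect with time was not found for miR-223-3p (edgeR adjusted p = 0.922), nor for any member in any compartment, where 0% of miRNAs passed except 0.592% in glomeruli. At an unadjusted p under 0.05, 3 of these member tests passed, those of miR-223-5p in whole kidney and of miR-142a-3p in glomeruli and arterioles (edgeR adjusted p = 0.667, 0.400 and 0.657).

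**Figure D1:**
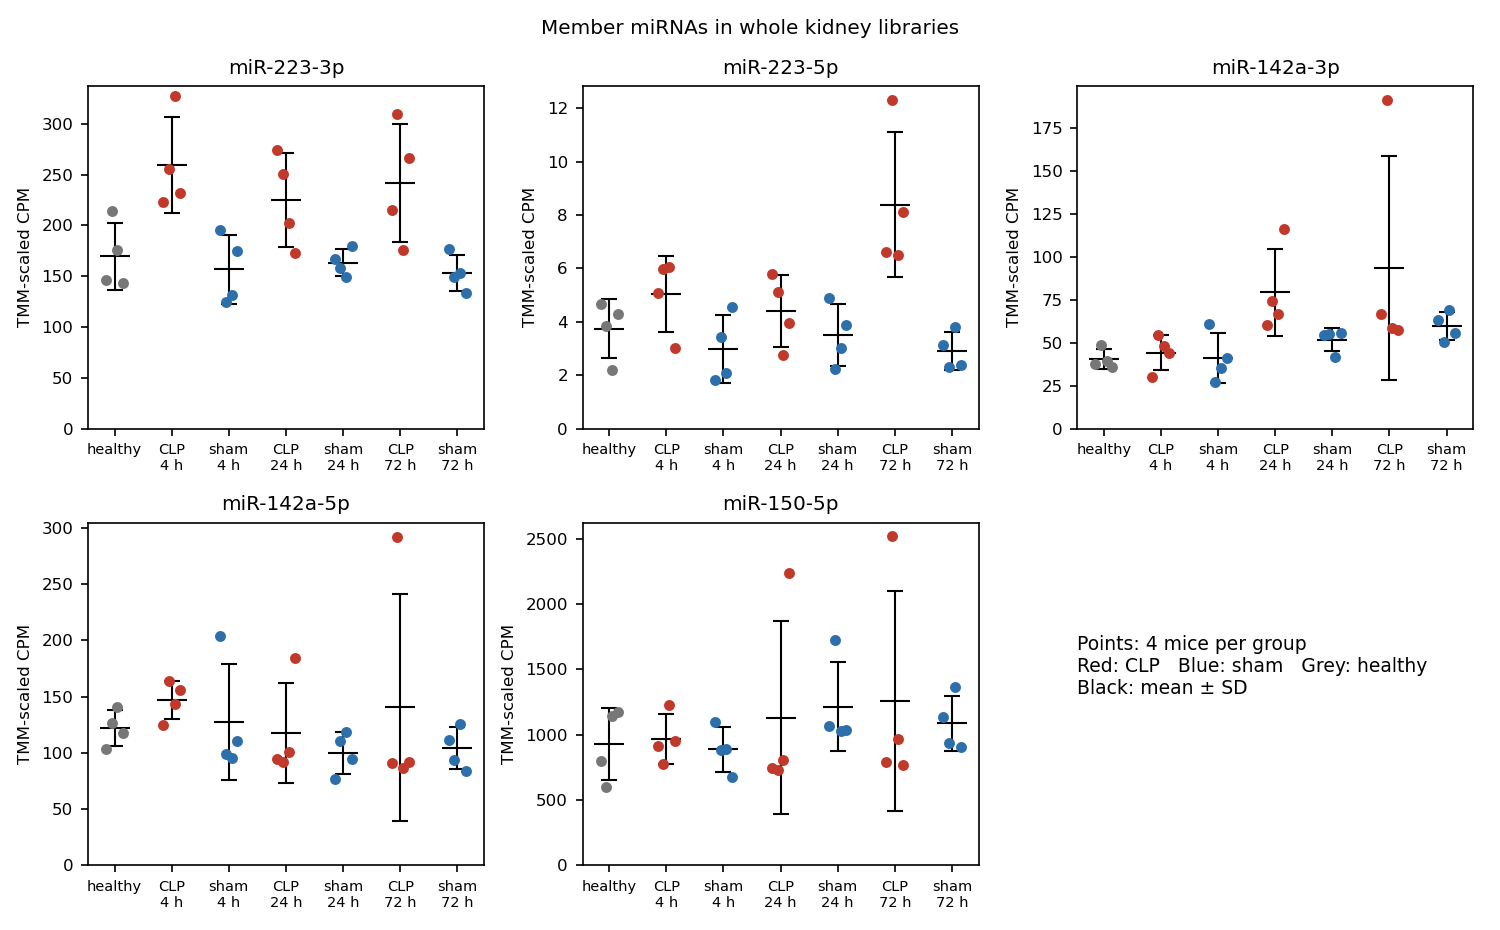
TMM-scaled CPM of the 5 miRNAs in whole kidney, by group; points are mice (4 per group) and black bars the mean ± SD. miR-223-3p averaged 259.7 CPM in CLP mice and 157 CPM in sham mice at 4 h, and 1 CLP library at 24 h and 1 at 72 h stand far above the rest of their group for miR-150-5p.

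miR-223-5p, cut from the other arm of the same hairpin, was the only member past the test at a single time. At 72 h in whole kidney it was at 6.61, 12.3, 6.52 and 8.10 CPM in CLP mice (36, 64, 35 and 40 counts), against 3.13, 2.30, 3.80 and 2.37 CPM in sham mice (16, 13, 20 and 12 counts). All 4 CLP libraries lay above all 4 sham libraries, as they did for 6.64% of the miRNAs tested. It rose by 1.52 on the log2 scale (SE 0.326, edgeR adjusted p = 0.00843), 1 of 5 members called where 1.85% of 542 miRNAs passed. The call did not hold without CLP replicate 2 (1.21, adjusted p = 0.0967), nor without sham replicate 1, 2 or 4 (adjusted p = 0.0557, 0.0728 and 0.0663).

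At 4 h miR-223-5p was at 5.10, 5.98, 6.04 and 3.01 CPM in CLP mice and at 1.82, 3.44, 2.08 and 4.54 CPM in sham mice. The groups overlapped, and the log2 fold change was 0.75 ± 0.397 (adjusted p = 0.999). At 24 h it was at 5.80, 5.10, 2.75 and 3.94 CPM in CLP mice and at 4.89, 2.22, 3.02 and 3.90 CPM in sham mice, again overlapping, with a log2 fold change of 0.29 ± 0.331 (adjusted p = 0.831). Averaged over the 3 times it rose by 0.85 (SE 0.203, adjusted p = 0.0176), a call that was lost without any one of 7 libraries: sham 4 h replicate 1, CLP 4 h replicates 2 and 3, sham 24 h replicates 2 and 3, CLP 24 h replicate 2 and sham 72 h replicate 4 (adjusted p from 0.0507 to 0.069). In libraries of CLP mice at 72 h, miR-223-3p exceeded miR-223-5p by a mean log2 ratio of 4.85 ± 0.193 (SD), against 5.70 ± 0.288 in sham mice, without overlap. The exact two-sided permutation p of this ratio was 0.0286, the smallest that 4 mice against 4 allow, and 0.214 after adjustment over the 75 ratio tests made.

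miR-142a-3p, the blood-cell-wide marker, stood close in CLP and sham kidneys at 4 h. It was at 30.2, 54.5, 48.3 and 44.1 CPM in CLP mice and at 61.0, 27.1, 35.3 and 40.9 CPM in sham mice, with a log2 fold change of 0.08 ± 0.314 (adjusted p = 0.999). At 24 h it was at 60.3, 74.2, 67.0 and 117 CPM in CLP mice, all above the 54.4, 55.0, 41.6 and 55.5 CPM of the sham mice. Such a separation held for 2.03% of the miRNAs tested at 24 h, and the log2 fold change of 0.62 ± 0.29 did not pass the edgeR test (adjusted p = 0.552). At 72 h it was at 66.7, 192, 58.5 and 57.5 CPM in CLP mice and at 63.6, 50.2, 69.2 and 56.0 CPM in sham mice. The single CLP library at 192 CPM set that group apart. The log2 fold change there was 0.65 ± 0.289 (adjusted p = 0.339), and without that library it was -0.04. Averaged over the 3 times it was 0.45 ± 0.172 (adjusted p = 0.257), and without a filter on low counts 0.49 (adjusted p = 0.00483).

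miR-142a-5p, from the other arm of that hairpin, passed at no time either. Its log2 fold change in whole kidney was 0.20 ± 0.308 at 4 h, 0.24 ± 0.302 at 24 h and 0.43 ± 0.301 at 72 h (adjusted p = 0.999, 0.840 and 0.618). At 72 h it was at 90.6, 292, 86.2 and 92.0 CPM in CLP mice and at 111.7, 93.7, 126 and 84.0 CPM in sham mice. The same CLP library was high, and the other 3 lay within the sham range.

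miR-150-5p, the lymphocyte miRNA, showed no difference past the test in whole kidney. At 24 h it was at 744, 728, 807 and 2239.8 CPM in CLP mice and at 1067, 1721, 1029.9 and 1033 CPM in sham mice. At 72 h it was at 791, 2518, 965 and 767 CPM in CLP mice and at 1135, 937, 1361 and 905 CPM in sham mice. At both times 1 CLP library was the highest of the 8, while the other 3 lay low in or under the sham range. The log2 fold change was 0.12 ± 0.336 at 4 h, -0.10 ± 0.334 at 24 h and 0.22 ± 0.335 at 72 h (adjusted p = 0.999, 0.916 and 0.836). In bulk tissue, fewer cells of a type and less of an RNA per cell cannot be told apart.

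The libraries of CLP replicate 4 at 24 h and CLP replicate 2 at 72 h stood apart for these miRNAs. miR-150-5p was 3.01 and 3.19 times the median of the other 3 CLP libraries of its time in them. For miR-150-3p, from the other arm of that hairpin, these ratios were 4.10 and 7.23. For miR-142a-3p they were 1.74 and 3.27, and for miR-142a-5p 1.96 and 3.23. miR-223-3p did not move with them in the 24 h library, where its ratio was 0.689. In the 72 h library its ratio was 1.44. Of the other leukocyte miRNAs, miR-342-3p was at 1.02 and 1.29 times the median, miR-146a-5p at 0.984 and 1.21 and miR-155-5p at 1.25 and 1.40. Of the 5 erythroid miRNAs, the ratios were 0.977 (miR-144-5p) to 1.67 (miR-486a-5p) in the 24 h library and 0.850 (miR-486a-5p) to 1.56 (miR-144-3p) in the 72 h library. Among 3 miRNAs tied to kidney tubules, miR-215-5p was at 4.82 and 1.70 times the median (10.4 and 4.42 CPM). The others were lower, miR-192-5p at 0.81 and 0.795 and miR-194-5p at 0.963 and 0.896. The origin of the high values was not tested.

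**Figure D2:**
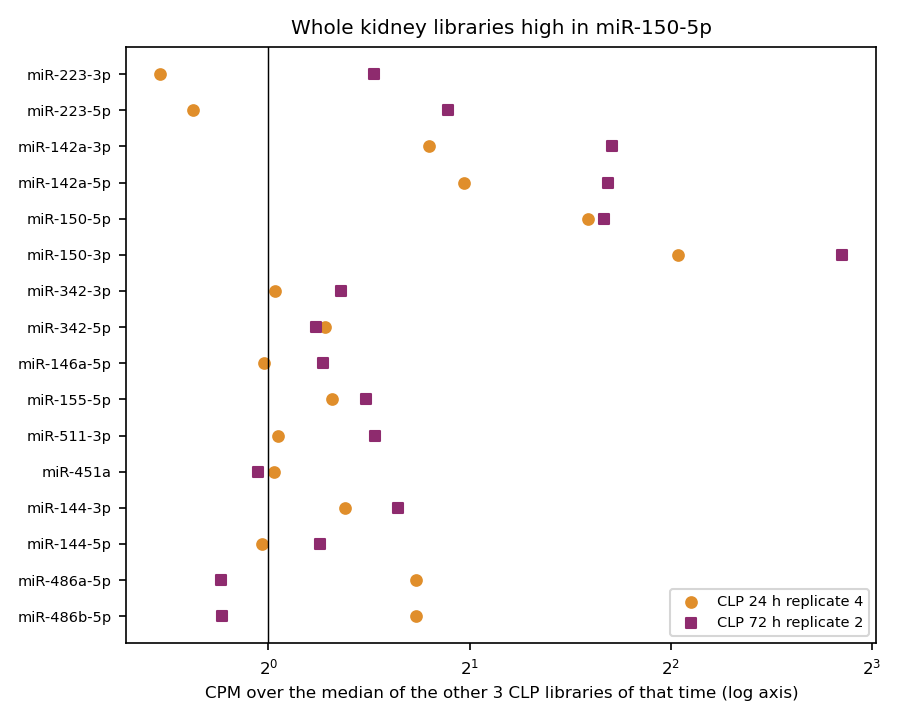
Level of leukocyte and erythroid miRNAs in CLP replicate 4 at 24 h (circles) and CLP replicate 2 at 72 h (squares), as CPM over the median of the other 3 CLP whole kidney libraries of that time, on a log axis. Both arms of miR-150 and of miR-142a are high in both libraries, whereas miR-223-3p is at 0.689 in the first.

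Without both of these libraries the averaged rise of miR-223-3p in whole kidney was still past the test, while that of miR-223-5p was 0.79 (adjusted p = 0.0642) and its 72 h value was 1.26 (adjusted p = 0.0675). The averaged log2 fold change of miR-150-5p was then -0.30 (adjusted p = 0.418), against 0.08 ± 0.193 with all libraries. That of miR-142a-5p was -0.02, against 0.29 ± 0.175 with all libraries. Both libraries left out were of CLP mice and were chosen for high miR-150-5p, which by itself lowers its CLP mean. Sham replicate 2 at 24 h, also high in miR-150-5p (1721 CPM, others 1030 to 1067), was kept. Without that sham library alone, the 24 h log2 fold change of miR-150-5p was 0.18 (edgeR adjusted p = 0.882), against -0.10 with all libraries.

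Other miRNAs tied to white blood cells gave no call beside miR-223 in whole kidney. A list of 9 held miR-150-3p, miR-142b, both arms of miR-342 and miR-511, miR-146a-5p and miR-155-5p, which are induced in activated immune cells, and miR-147-3p. Of the 6 that were tested, 0 passed edgeR at 4 h, 24 h or 72 h. Their median log2 fold change was 0.02, 0.14 and 0.32 in the order of time, beside 0.00, -0.05 and 0.03 for all 542 miRNAs. At an unadjusted p under 0.05, miR-511-3p at 24 h (0.53 ± 0.214, adjusted p = 0.436) and at 72 h (0.50 ± 0.21, adjusted p = 0.285) and miR-342-5p at 72 h (0.67 ± 0.196, adjusted p = 0.069) stood above sham. miR-146a-5p was at 0.14 ± 0.193 and miR-155-5p at 0.14 ± 0.171 at 72 h. The 5 erythroid miRNAs of whole kidney summed to 8377 to 11336 CPM in CLP mice at 72 h and to 8800 to 10043 CPM in sham mice, and 0 of them passed at any time.

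In the microdissected compartments no member passed the test of CLP against sham. Over 42 tests of a member at one time in one compartment edgeR called 0, and DESeq2 called 0 of the 58 that had an adjusted p. With edgeR 5 had an unadjusted p under 0.05, with 20 of the 42 log2 fold changes above 0. Of all miRNAs tested, 0.592% passed in glomeruli at 4 h and at 72 h, 0.36% in arterioles at 4 h, 1.4% in venules at 72 h, 0.498% and 0.995% in peritubular capillaries at 24 h and 72 h, and 0% at the other times. The smallest adjusted p was 0.131, for miR-142a-3p in glomeruli at 4 h. It was at 163, 136, 227 and 119.6 CPM in CLP mice (16, 32, 26 and 11 counts), against 31.4, 13.4, 44.9 and 76.4 CPM in sham mice (5, 1, 10 and 20 counts). The groups did not overlap, as for 3.55% of the miRNAs tested there with CLP above sham, and the log2 fold change was 1.85 ± 0.622. In arterioles at 4 h the same miRNA had 12, 10, 5 and 17 counts in CLP mice and 0, 0, 4 and 0 counts in sham mice, with a log2 fold change of 2.42 ± 1.02 (adjusted p = 0.333). In venules at 4 h its log2 fold change was -0.73 ± 0.653 (adjusted p = 0.942), while that of miR-142a-5p was 1.45 ± 0.616 (adjusted p = 0.740). There miR-142a-5p was at 786, 672, 704 and 70.9 CPM in CLP mice and at 328, 57.5, 129 and 270 CPM in sham mice, so that 3 CLP libraries lay above the sham range and 1 within it.

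miR-223-3p in glomeruli was at 346, 448, 410.0 and 348 CPM in CLP mice at 4 h and at 239, 374, 130.3 and 145 CPM in sham mice. At 72 h it was at 264, 370.1, 288 and 264 CPM in CLP mice, all above the 100.0, 193, 142 and 203 CPM of sham mice, a separation shared by 1.18% of the miRNAs tested. The log2 fold change was 0.84 ± 0.432 at 4 h, 0.39 ± 0.422 at 24 h and 0.89 ± 0.419 at 72 h (adjusted p = 0.360, 0.820 and 0.993). Averaged over the times it was 0.71 ± 0.245 in glomeruli (edgeR adjusted p = 0.287, with 0.592% of miRNAs past the test), 0.61 ± 0.106 in whole kidney, 0.46 ± 0.745 in peritubular capillaries, -0.09 ± 0.418 in venules and -0.41 ± 0.723 in arterioles. The value in glomeruli was thus as large as in whole kidney but with a wider SE. In arterioles at 72 h miR-223-3p was at 74.1 to 120 CPM in CLP mice and 35.9 to 69.0 CPM in sham mice (log2 0.70 ± 1.23). Such a separation held for 2.52% of miRNAs there. In peritubular capillaries at 24 h it was at 208 to 537 and 0 to 103 CPM (2.66 ± 1.39, edgeR adjusted p = 0.981), a separation shared by 2.99%. The groups overlapped at the other times there and in venules. A test of whether the CLP effect differed between the 4 microdissected compartments did not pass for miR-223-3p at any time (edgeR adjusted p = 0.909, 1 and 1), nor for any other member; 0.261% of miRNAs passed at 4 h and 0% later. At an unadjusted p under 0.05, 1 member test passed, that of miR-223-3p at 24 h (edgeR unadjusted p = 0.0313, adjusted p = 1). Whole kidney was not part of that test.

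miR-150-5p in glomeruli at 72 h was at 988, 1514, 1189 and 1139 CPM in CLP mice and at 1230.5, 1662, 1747 and 2926 CPM in sham mice, with a log2 fold change of -0.65 ± 0.285 (adjusted p = 0.993). Within glomerular libraries at that time, the log2 ratio of miR-223-3p to miR-150-5p averaged -2.02 ± 0.0871 in CLP mice and -3.54 ± 0.317 in sham mice. The ratio of every CLP mouse lay above that of every sham mouse (exact permutation p = 0.0286, adjusted p = 0.214). The ratio of miR-142a-3p to miR-150-5p separated there too, at -2.65 ± 0.451 in CLP mice and -4.10 ± 0.761 in sham mice (exact permutation p = 0.0286, adjusted p = 0.214). That of miR-223-3p to miR-142a-3p overlapped, at 0.63 ± 0.385 and 0.56 ± 0.582. The shift against miR-150-5p was thus shared by miR-142a-3p and was not particular to miR-223-3p. The ratio of miR-223-3p to miR-150-5p went the other way in peritubular capillaries at 4 h. It averaged -2.69 ± 2.03 in CLP mice and 0.52 ± 0.748 in sham mice (exact permutation p = 0.0286, adjusted p = 0.214), in libraries of at most 16 counts of miR-223-3p. The 4 sham libraries held 14 counts of miR-223-3p and 10 of miR-150-5p in all. Of them, 1 held no count of any member, so its ratio was set by the offset alone. In whole kidney at 4 h the log2 ratio of miR-223-3p to miR-142a-3p averaged 2.56 ± 0.307 in CLP mice and 1.96 ± 0.232 in sham mice (exact permutation p = 0.0286, adjusted p = 0.214). Of the 75 ratio tests, 10 gave the smallest p possible and 0 passed after adjustment. As that smallest p was 0.0286, no ratio could pass the adjustment by itself. The adjusted values therefore decide nothing about a single ratio.

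**Figure D3:**
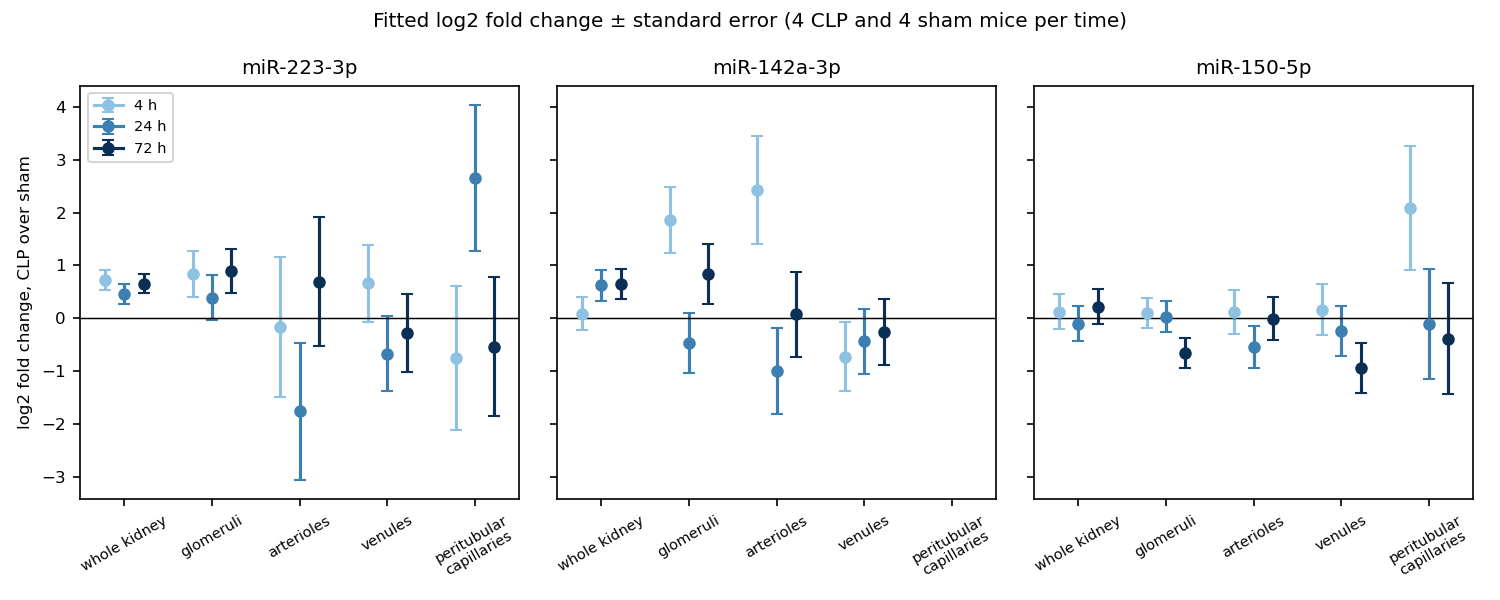
Fitted log2 fold change, CLP over sham, ± SE for 3 miRNAs by compartment and time (4 mice per group); miR-142a-3p was too low to be tested in peritubular capillaries. miR-223-3p in whole kidney and in glomeruli lies above 0 at all 3 times, and the SE of miR-223-3p is larger in arterioles and peritubular capillaries than in the other compartments.

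miR-223-5p could be followed only in whole kidney. Among the microdissected libraries, 10 held any count of it, 90 counts in all. Of these 10 libraries, 7 were of CLP mice (80 counts) and 3 of sham mice (10 counts). The 16 healthy microdissected libraries held none. The highest values were 32 and 19 counts in glomeruli of CLP mice at 72 h and 13 counts in peritubular capillaries of 1 CLP mouse at 72 h. It was too low to be tested in these compartments.

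In healthy mice some members differed between the microvessels, as did many other miRNAs (10.2% to 22.7% of 383 in a contrast). Most of these member calls did not hold under other settings, as given below. miR-150-5p was at 2567, 2321, 2374 and 1087 CPM in glomeruli, at 1115, 1236, 1370.5 and 389.7 CPM in arterioles, and at 988, 1051, 1381 and 2191 CPM in venules. In peritubular capillaries it had 0, 0, 16 and 4 counts, in libraries of 14030, 15246, 11374 and 4215 miRNA counts. These had a median of 496 CPM, and the highest was at 1502 CPM, within the range of venules. It was lower in peritubular capillaries than in the mean of the other 3 compartments by a log2 difference of -2.43 ± 0.642 (edgeR, blocked by mouse, adjusted p = 0.0025). It was higher in glomeruli than in the other 3 by 1.26 ± 0.464 (adjusted p = 0.0409). These tests used a scaling common to all microdissected libraries, under which the median log2 difference of all 383 miRNAs was -0.61 for peritubular capillaries and 0.57 for glomeruli, so the differences relative to that median are smaller.

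miR-142a-3p was at 811, 25.6, 614 and 523 CPM in healthy venules, 96.1, 40.5, 62.6 and 292 CPM in glomeruli and 119, 80.2, 215 and 0 CPM in arterioles. In peritubular capillaries it had 1 count in the 4 libraries together. Its log2 difference was -3.41 ± 1.3 for peritubular capillaries against the others (adjusted p = 0.0492). In venules it was 2.13 ± 0.824, which missed the threshold (adjusted p = 0.0855). The venule value passed with plain library totals (2.68, adjusted p = 0.0158) and without the mouse as a block (2.46, adjusted p = 0.0206), as well as without healthy replicate 4 (3.85, adjusted p = 0.0324). The other arm, miR-142a-5p, had 11 counts in the healthy peritubular capillaries, with 3 of the 4 libraries at 0. Its log2 difference there was -0.38 ± 1.38, which did not pass (edgeR unadjusted p = 0.782). In these contrasts 2 of the 4 members tested were lower in peritubular capillaries, where 13.8% of miRNAs were lower and 22.7% passed in either direction. In glomeruli 1 of 4 was higher, where 16.7% of miRNAs were higher and 21.4% passed in either direction. In venules 0 members passed (10.2% of miRNAs passed in either direction) and in arterioles 0 (14.9%). The lower miR-150-5p of peritubular capillaries did not pass without healthy replicate 2 (-1.79, adjusted p = 0.0629), but passed under all 5 other settings tried. The higher miR-150-5p of glomeruli did not pass without replicate 1 or 2 (0.87 and 0.97, adjusted p = 0.298 and 0.220), nor under any of the 5 other settings: RLE factors, plain library totals, no filter on low counts, no block and the 16 healthy libraries alone (adjusted p from 0.0587 to 0.128). The lower miR-142a-3p of peritubular capillaries did not pass without replicate 1, 2 or 3 (adjusted p = 0.196, 0.147 and 0.181), nor with RLE factors, plain library totals, no filter or the 16 healthy libraries alone (adjusted p = 0.0605, 0.132, 0.223 and 0.0909). It passed without the block.

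miR-223-3p was at 41.2, 147, 169 and 257 CPM in healthy glomeruli and at 123, 385, 0 and 74.7 CPM in venules. In arterioles it was at 228, 48.1, 0 and 39.0 CPM, and in peritubular capillaries it had 1 count in all. Its log2 difference for peritubular capillaries was -2.87 ± 1.47 (adjusted p = 0.164), and without healthy replicate 4 its adjusted p was 0.0354. The 5 erythroid miRNAs summed to 79471 to 183698 CPM in healthy venules and to 7887 to 24915 CPM in peritubular capillaries, and all 5 were higher in venules by the same test. The part of retained blood in the leukocyte values was not tested. Of the 6 other leukocyte miRNAs tested, 1 was lower in peritubular capillaries, miR-342-3p (-1.62 ± 0.482, adjusted p = 0.00798), and 0 were higher. miR-146a-5p was at -0.34 ± 0.514 (adjusted p = 0.761) and miR-155-5p at 1.04 ± 1.03 (adjusted p = 0.544).

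**Figure D4:**
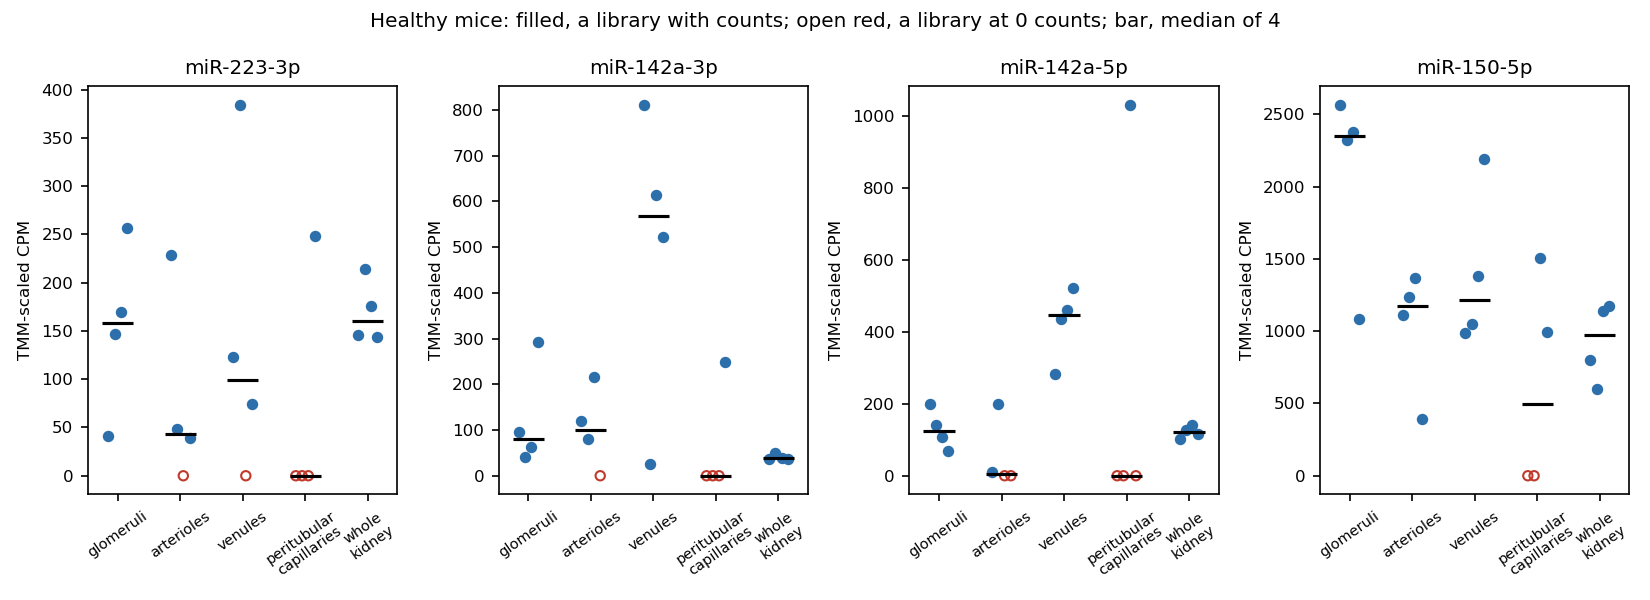
TMM-scaled CPM of 4 members in healthy mice by compartment; filled points are libraries with counts, open red points libraries at 0 counts, and bars the median of 4 mice. miR-150-5p is highest in glomeruli (1087 to 2567 CPM) and miR-142a-3p in venules (25.6 to 811 CPM).

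Healthy whole kidney did not differ past the test from the 4 microdissected compartments of the same mice for any of the 4 members tested, while 44.2% of 242 miRNAs did. The log2 difference, whole kidney over the mean of the others, was 1.00 ± 0.869 for miR-223-3p (edgeR adjusted p = 0.385) and -1.39 ± 0.981 for miR-142a-3p (adjusted p = 0.264). The median of all 242 miRNAs was 0.53, so the difference of miR-223-3p relative to that median is smaller. Tissue and collection method cannot be told apart in this comparison. Sham surgery at 4 h against healthy mice gave no call for a member in any compartment (edgeR), where 0.185% of miRNAs passed in whole kidney, 1.44% in arterioles and 0% in the others. Of these member tests 4 had an unadjusted p under 0.05. The smallest was 0.00551, for miR-150-5p in glomeruli, at 986, 1455, 1137 and 1042 CPM in sham mice and with a log2 fold change of -0.86 ± 0.291 against the healthy mice (adjusted p = 0.434).

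The counts of miR-142a were split between its arms in different proportions in whole kidney and in the microdissected samples. Whole kidney was not microdissected and its libraries were deeper, so tissue, collection method and depth cannot be told apart. In whole kidney 13529 counts were of the 5p arm and 7362 of the 3p arm, so that 64.8% were 5p. In the microdissected libraries together 2411 were 5p and 4073 were 3p, or 37.2%. Summed over its libraries, the 5p share was 28.5% in arterioles, 36.8% in venules, 40.7% in glomeruli and 45.7% in peritubular capillaries. The medians over mice were 29.6%, 38.9%, 43.6% and 60% in the same order. In peritubular capillaries only 21 mice had counts, and 11 of them were over 50%. Per mouse, the 5p share averaged 67.9 ± 7.87% in whole kidney and 41.7 ± 13.7% over its microdissected samples (SD, n = 28). It was higher in whole kidney in 27 of 28 mice, by 26.2 ± 11.6 percentage points. A two-sided paired permutation test, chosen after the values were seen, gave p = 1e-05, the smallest that 100000 resamples can give.

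The 5p share also differed between the mice sampled early and late. In whole kidney it was 72.2 to 80.5% in the 12 healthy and 4 h mice and 55.3 to 74.0% in the 16 mice of 24 h and 72 h. These sets of mice also have column names of different styles in the deposited table, so time and any difference in handling cannot be told apart. The excess of whole kidney over the microdissected samples was 24.3 points in the first set (11 of 12 mice, permutation p = 0.00122) and 27.7 points in the second (16 of 16 mice, permutation p = 6e-05). Within whole kidney the 5p share averaged 59.8 ± 1.66% in CLP mice and 63.4 ± 2.28% in sham mice at 72 h. At 24 h it averaged 59.4 ± 2.76% in CLP mice and 65.5 ± 6.57% in sham mice. At 4 h the averages were 77.1 ± 2.71% in CLP mice and 75.4 ± 2.79% in sham mice. The ranges of CLP and sham mice overlapped at each time. For the log2 ratio of the 3p to the 5p arm in these libraries, the exact permutation p was 0.0857 at 72 h, 0.143 at 24 h and 0.429 at 4 h (adjusted p = 0.292, 0.397 and 0.686).

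**Figure D5:**
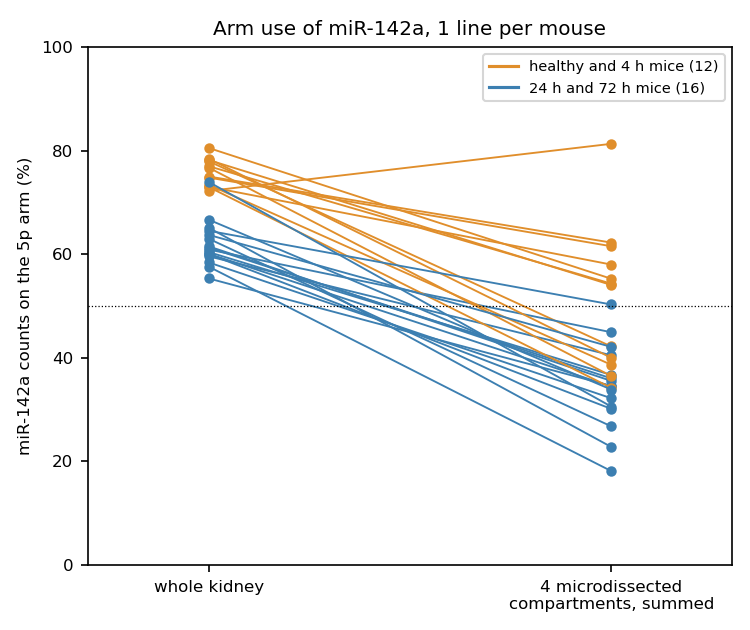
Share of miR-142a counts on the 5p arm in whole kidney and in the 4 microdissected compartments summed, with 1 line per mouse (28 mice). The share is higher in whole kidney in 27 of 28 mice, and the 12 healthy and 4 h mice lie above most of the 16 later mice in whole kidney.

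For miR-223 the same test did not pass. Its 5p arm made up 2.27% of its counts in whole kidney and 2.43% in the microdissected libraries together. Per mouse the shares averaged 2.18 ± 0.73% in whole kidney and 1.41 ± 3.05% in the microdissected samples (permutation p = 0.164). The share was higher in whole kidney in 22 of 28 mice, the microdissected values resting on 90 counts of the 5p arm.

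Over the 35 group means of log2 CPM, the members were alike to different degrees. Spearman's rho of miR-223-3p was 0.12 with miR-142a-3p, 0.14 with miR-150-5p, 0.39 with miR-223-5p and 0.55 with miR-142a-5p. That of miR-142a-3p was 0.54 with miR-142a-5p and 0.52 with miR-150-5p, and that of miR-150-5p with miR-142a-5p was 0.46. Among 192 miRNAs of at least 6 mean log2 CPM, the closest to miR-142a-3p were miR-486a-3p (0.81), miR-144-3p (0.78) and miR-328-3p (0.70). The closest to miR-223-3p were miR-106b-3p (0.70), miR-25-3p (0.65) and miR-375-3p (0.63), and the closest to miR-150-5p were miR-486a-3p (0.60), miR-342-3p (0.57) and miR-142a-3p. These values are descriptions. The group means share compartments of very different depth, and mice give a library to each compartment.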

How the data were processed

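Libraries were made with a RealSeq kit, per the labels' protocols. FastQC 0.11.9, MultiQC 1.10, cutadapt 3.3 and Bowtie 1.3.0 are named in the submitters' processing notes, with the builds GRCm38.p6 and GRCm39. The sources used here do not state their roles, the counting tool or how reads that fit several miRNAs were treated. The authors deposited raw counts, whole reads per mature miRNA and library, without normalization. All 140 columns were matched by name. The table also has 10 entries whose names start with #, which took a mean of 5.58% of counts in whole kidney and 78.1% to 97.9% in the other compartments, and which entered neither library sizes nor tests.

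The 28 libraries of a compartment were fitted together in edgeR 4.0.16 under R 4.3.3. TMM factors were used, miRNAs were kept by filterByExpr (min.count 10, min.total.count 15), and groups were compared by the quasi-likelihood F test. Healthy compartments, and the CLP effect between compartments, were tested in all microdissected libraries in a fit blocked by mouse. Healthy whole kidney was set against them in the 20 healthy libraries, also blocked by mouse. P-values are two-sided and Benjamini-Hochberg adjusted over all miRNAs of a comparison, with 0.05 as the threshold. Log2 ratios within libraries used an offset of 0.5 and an exact permutation test. The CLP against sham fit of each compartment was tested on simulated counts of a fixed spread, with changes at 24 h. The fits blocked by mouse were not tested in this way. The replicate is the mouse, which the labels call biological. Same-numbered CLP and sham mice are different animals, and their deviations had correlations of -0.28 to 0.283 (median -0.01, 10 of 60 pairs over 0.1), so the numbers do not pair them. Alternatives were RLE factors, plain totals, DESeq2 1.42.0, no filter, compared libraries only, a replicate block, a floor of 20000 miRNA counts, an offset of 1 and leaving out each library.

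The members, the lists and the rule for like miRNAs (the 3 with the highest Spearman's rho over group means) were chosen with earlier results of these data known. The average over times, the fit without both whole kidney libraries high in miR-150-5p and the arm tests were chosen after the values were seen. Sequences are from RefSeq, gene overlaps from GENCODE M21.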

Additional observations from a re-analysis of the deposited data

Results flagged for a closer look

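Within each group of 4 libraries, the highest and lowest level of each member was tested by Dixon's ratio at its 95% critical value, where at least 3 libraries had counts. Of 129 groups tested, 14 were flagged. Chance flags about 1 in 20 groups if the values are normally distributed. That was not checked for these CPM values, which were not logged and rest in part on few counts.

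In whole kidney, CLP replicate 2 at 72 h was flagged as the highest of its group for miR-142a-3p (192 CPM, others 57.5 to 66.7), for miR-142a-5p (292 CPM, others 86.2 to 92.0) and for miR-150-5p (2518 CPM, others 767 to 965). CLP replicate 4 at 24 h was flagged as the highest for miR-142a-5p (185 CPM, others 91.9 to 101) and for miR-150-5p (2240 CPM, others 728 to 807). Among sham mice, miR-150-5p was highest in replicate 2 at 24 h (1721 CPM, others 1029.9 to 1067), miR-142a-5p was highest in replicate 1 at 4 h (204 CPM, others 95.6 to 110.3) and miR-142a-3p was lowest in replicate 3 at 24 h (41.6 CPM, others 54.4 to 55.5).

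In venules, miR-223-3p was highest in sham replicate 3 at 24 h (508 CPM, others 144 to 201) and miR-142a-5p was lowest in CLP replicate 4 at 4 h (70.9 CPM, others 672 to 786). In glomeruli, miR-150-5p was lowest in healthy replicate 4 (1087 CPM, others 2321 to 2567). In peritubular capillaries, miR-142a-3p was highest in CLP replicate 1 at 24 h (470 CPM, others 0 to 50.4). miR-150-5p was highest there in CLP replicate 2 at 4 h (2967 CPM, others 525 to 910.5) and in sham replicate 2 at 24 h (2668 CPM, others 180.0 to 436).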

How the results depend on the processing

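The rise of miR-223-3p averaged over times in whole kidney passed under every alternative run and without each library. The count of members called at a single time in whole kidney was 1, but 2 with plain library totals, with DESeq2 and with the compared libraries only, 3 without a filter on low counts, and 0 without both libraries high in miR-150-5p; leaving out one library at a time gave 0 to 2. For the average over times the count was 2, but 3 without a filter on low counts (miR-142a-3p at 0.49, adjusted p = 0.00483), 1 without both of those libraries, and 1 to 2 without one library. Among healthy microdissected compartments it was 3, but 2 with plain library totals, 1 with RLE factors, without a filter and with the 16 healthy libraries alone, and 0 to 5 without one mouse.

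No same-numbered pairing of CLP and sham mice was found; with the replicate block the whole kidney counts were 1 and 2, as without it, and the averaged log2 fold change of miR-223-3p was 0.61 (adjusted p = 0.00117). Counts in the other compartments were 0 with and without the block.

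Directions turned for values that had passed no test. Without both CLP libraries high in miR-150-5p, miR-142a-5p in whole kidney was at -0.0182 at 24 h, -0.23 at 72 h and -0.0195 averaged, and miR-150-5p at -0.38 at 72 h and -0.30 averaged. The sham library high in miR-150-5p at 24 h was kept in that fit. With libraries of at least 20000 miRNA counts, averaged miR-223-3p in venules was at 0.0933. Leaving out one library gave, in whole kidney, -0.0874 to 0.25 for miR-142a-3p at 4 h and -0.0369 to 0.82 at 72 h, -0.00769 to 0.40 for miR-142a-5p at 24 h and -0.28 to 0.62 at 72 h, and for miR-150-5p -0.0661 to 0.15 at 4 h, -0.62 to 0.18 at 24 h, -0.42 to 0.36 at 72 h and -0.12 to 0.15 averaged. It gave -0.28 to 0.13 for averaged miR-223-3p in venules and -2.18 to 0.54 for miR-142a-3p in healthy whole kidney against the microdissected compartments. The causes were not tested. Depth limits peritubular capillaries most, then venules and arterioles.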
